A study of Mus musculus with 18 samples.

Results

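Arc and Npas4, 2 genes that neurons switch on within minutes of strong activity, were followed across 18 hippocampal RNA libraries from rotated and control mice. The genes were chosen by name and not by a rule on their values, although earlier results of these data were known. They are 2 of the 22063 genes in the count table. Each has 1 row there, ENSMUSG00000022602 for Arc and ENSMUSG00000045903 for Npas4. The study asked how spatial disorientation of vestibular origin, evoked by rotating mice about several axes, alters the hippocampal transcriptome, with the tissue collected directly after the stimulus. The 3 Control libraries came from mice labelled as blank controls. The 5 S-V libraries came from mice rotated in one direction with vision blocked. The 5 D+V libraries came from mice rotated in both directions with vision free. The 5 D-V libraries combined rotation in both directions with blocked vision, which the labels name the Coriolis illusion. Strain, sex, age and the length of rotation were not given in the sources used here, nor was it said whether controls were placed in the apparatus or blindfolded. No group combined rotation in one direction with free vision. The labels do not say that the libraries of a group are separate animals, so every p-value below measures only the spread between these libraries.

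Arc encodes a cytoskeleton-associated protein whose mRNA travels into dendrites. The protein works at the spine, where it promotes the removal of AMPA receptors by endocytosis. Npas4 encodes a basic helix-loop-helix PAS transcription factor that depends on calcium entry, pairs with ARNT or ARNT2, and drives activity-dependent genes that adjust inhibitory synapses. Both are immediate early genes, transcribed from pre-existing factors without new protein synthesis. In the hippocampus Arc is strongly induced by exploration, above all in pyramidal and dentate granule neurons. Npas4 is more closely tied to depolarization and less to growth factors than Arc.

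Arc lies on the minus strand of chromosome 15 and Npas4 on the minus strand of chromosome 19 in the GENCODE M21 annotation, and no other annotated gene overlaps either. The longest coding transcript is 3055 bases for Arc and 3622 bases for Npas4, with GC contents of 59.0% and 57.4%. The start of Npas4 is shown because cyclic AMP response elements (CRE), bound by CREB, and a TATA box are the letters through which a gene of this class is classically read. Both stretches are from RefSeq on GRCm38.p6, minus strand, 5′ to 3′. The first is chr19:4990127-4990156, 185 to 156 bases before the RefSeq start, and its capitals mark the letters GACGTCA on either strand. The second is chr19:4989979-4990008, 37 to 8 bases before that start, and its capitals mark TATAA. Both lie within an untranslated region of a longer Npas4 transcript in GENCODE M21 that starts further upstream.
Npas4, CRE-like letters: gttcGACGTCAcgggaTGACGTCggaagtc
Npas4, TATA letters: gtcaggagctaTATAAggcggatcgaggca
GACGTCA, searched on both strands, is 1 base short of the full palindrome TGACGTCA. It occurs 2 times in the Npas4 window, which runs from 250 bases before to 50 after the start. It was present in 3.21% of all 32851 RefSeq windows of that length. Counted by gene, it was present for 3.6% of the 27025 genes with a window and for 7 of 28 other early-response genes that had one. The full palindrome TGACGTCA was absent from the Npas4 window and present in 1.79% of windows. The shorter core TGACG occurs 2 times in the Npas4 window, both inside the capitals above, and was found in 20.8% of windows. TATAA, searched on the given strand only, was found in 17.5% of windows. These matches describe letters and not bound sites.

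Library totals ran from 15.03 M to 25.31 M counts, and 14763 genes passed the filter on low counts, both members among them. Counts were scaled to counts per 1000000 library counts (CPM) with the trimmed mean of M-values (TMM). No marker on any of 12 lists for hippocampal or neighbouring cell types was at 0 in every library of a group. The 12 markers of CA1 and CA3 pyramidal cells summed to 905 to 1180 CPM and the 8 of dentate granule cells to 403 to 702 CPM. In 5 rotated libraries (S-V replicates 2 and 4, D+V replicate 2, D-V replicates 3 and 4) the 18 markers of choroid plexus epithelium, the tissue that makes cerebrospinal fluid, summed to 5690 to 14700 CPM, against 342 to 1870 CPM in the other 13. These 5 stand apart from the rest, and member values without them are given with the comparisons. In bulk tissue, fewer cells of a type and less RNA per cell cannot be told apart.

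Npas4 was scarce in every library. It read 18.8, 12.4 and 13.5 CPM in Control replicates 1 to 3. In S-V replicates 1 to 5 it read 7.55, 11.3, 11.1, 12.2 and 9.53 CPM. In D+V it read 7.55, 9.61, 10.1, 10.7 and 8.9 CPM. Every S-V and every D+V library therefore lay below all 3 controls, although the highest S-V library, at 12.2 CPM, nearly touched the lowest control, at 12.4 CPM. The D-V libraries read 10.6, 13.1, 11.6, 8.72 and 21.1 CPM. Of these 5, 3 lay below every control, replicate 2 fell within the control range and replicate 5 was the highest of all 18. Group means were 14.9 ± 3.45 CPM in Control (SD, n = 3), 13.0 ± 4.81 in D-V (SD, n = 5), 10.3 ± 1.83 in S-V (SD, n = 5), with D+V lowest at 9.37 ± 1.21 (SD, n = 5). In that order no pair of neighbours differed beyond the spread of its libraries, the smallest exact two-sided permutation p among them being 0.294.

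Arc was far more abundant and ordered the groups differently. It read 116, 163 and 220 CPM in Control replicates 1 to 3. In S-V replicates 1 to 5 it read 190, 139, 205, 145 and 198 CPM. In D+V it read 135, 169, 91.7, 127 and 115 CPM. The controls alone spanned most of the range of both groups, whereas 4 of 5 D+V libraries lay below every S-V library. The D-V libraries read 131, 131, 144, 122 and 224 CPM, so that 4 lay close together and replicate 5 exceeded all other libraries. Group means were 175 ± 30.9 CPM in the S-V group (SD, n = 5), 166 ± 52.2 in Control (SD, n = 3), 150 ± 42 in D-V (SD, n = 5), with D+V lowest at 127 ± 28.3 (SD, n = 5), and again no neighbours in the order differed beyond that spread (smallest exact two-sided permutation p = 0.325).

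**Figure D1:**
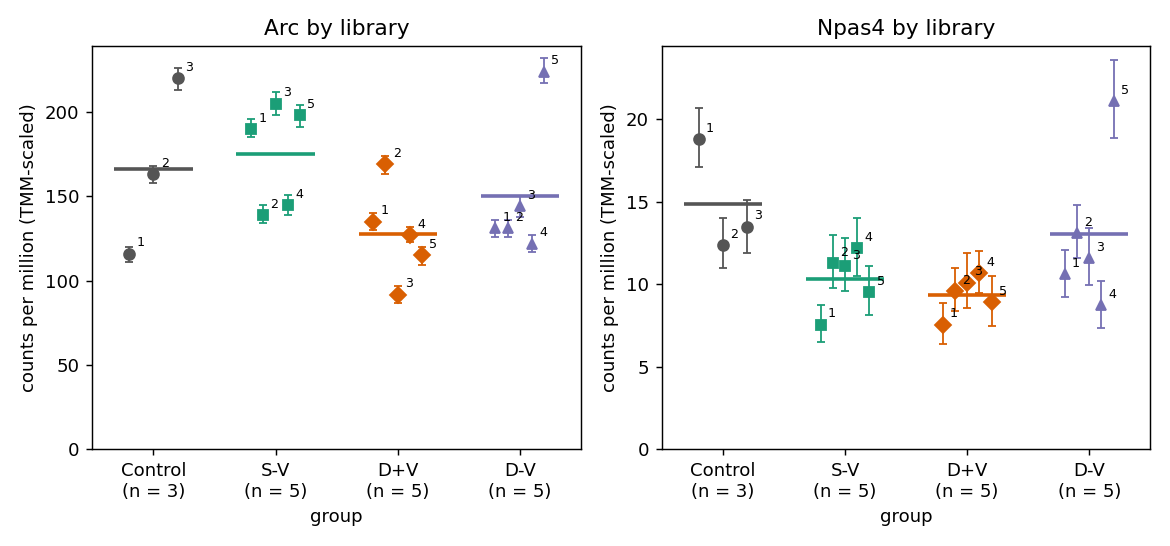
Level of Arc (left) and Npas4 (right) in CPM by group; each point is a library with its replicate number, the bar on a point is the 95% Poisson interval for counting error, and the horizontal line is the group mean. All 5 S-V and all 5 D+V points of Npas4 lie below the 3 controls, and D-V replicate 5 is the highest point in both panels.

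Per kilobase of transcript, Arc averaged 50.3 CPM and stood at percentile 91.1 of the 14743 tested genes with a length, and Npas4 averaged 3.2 CPM and stood at percentile 33.6. The ratio of the 2 levels per kilobase had a median of 15 and ranged from 7.28 in Control replicate 1 to 29.9 in S-V replicate 1. Arc rested on 1352 to 4615 counts per library, a counting error of 1.47% to 2.72%. Npas4 rested on 144 to 428 counts, a counting error of 4.83% to 8.33%. The library protocol describes PCR and no molecular identifiers, so these errors and the plotted intervals cover counting error only. The coefficient of variation over the 18 libraries was 25.4% for Arc and 30.5% for Npas4, well above counting error in both. Within groups, the biological coefficient of variation estimated by edgeR was 20.8% for Arc, at percentile 99.5 of the 1147 genes of similar abundance. The estimate was 21.6% for Npas4, at percentile 91.5 of 1979. Arc was thus among the most variable genes at its level between libraries of one group, with Nr4a1 (21.2%, percentile 98.6) close to it. Dlg4, which encodes the scaffold PSD-95, had a coefficient of 6.82%.

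The edgeR test called neither gene in any comparison of the groups. With edgeR's quasi-likelihood test, 0 of 14763 genes had a Benjamini-Hochberg adjusted p under 0.05 between S-V and Control (0%), 139 between D+V and Control (0.942%, 114 higher and 25 lower) and 0 between D-V and Control (0%). There were also 0 (0%) when the rotated groups were averaged and set against Control and for each pair of rotated groups. These counts depended on single libraries. Leaving out Control replicate 1, 2 or 3 turned the 139 calls in D+V into 0, 2 or 400. Leaving out D+V replicate 1, 3, 4 or 5 turned them into 1260, 13, 30 or 26. When D+V replicate 1 was dropped, edgeR called 1480 genes in D+V against S-V and 1230 in D-V against D+V, and dropping D+V replicate 4 gave 62 in the latter pair. At an unadjusted p under 0.05 the counts were 1973 genes (13.4%) for S-V, 2601 (17.6%) for D+V and 888 (6.02%) for D-V against Control, and 1902 for the mean of the rotated groups. The counts were 929 for D-V against S-V, 2003 for D-V against D+V and 1892 for D+V against S-V. In the order just given, from S-V against Control to D+V against S-V, DESeq2 called 216, 731, 3, 238, 4, 261 and 148 genes, and limma voom 318, 1882, 0, 381, 0, 819 and 1943. All comparisons with Control share the same 3 control libraries.

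Npas4 stood lower than Control by a log2 fold change of -0.67 (SE 0.22, 95% interval -1.13 to -0.21) in D+V, with an edgeR adjusted p of 0.123. In S-V the log2 fold change was -0.53 (SE 0.22, -0.99 to -0.07; edgeR adjusted p = 0.296). Both intervals, which are not adjusted, lie below 0, but among all genes such values were common: lower with no overlap of libraries were 5.74% of genes in S-V and 3.96% in D+V. By an exact two-sided permutation test over libraries, Npas4 gave p = 0.0179 for D+V, the smallest that the 56 splits allow, and p = 0.0357 for S-V. Adjusted over the 14 exact tests of the 2 genes, both became 0.15. In D-V the log2 fold change of Npas4 was -0.20 (SE 0.22, -0.66 to 0.26; edgeR adjusted p = 0.915). For the mean of the rotated groups it was -0.47 (SE 0.19, -0.86 to -0.08; edgeR adjusted p = 0.299), with 13 of 15 rotated libraries below every control and 1 above. DESeq2 gave Npas4 a log2 fold change of -0.66 and an adjusted p of 0.0535 in D+V against Control.

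D-V and D+V differ in vision alone, which was blocked in D-V, and Npas4 stood higher in D-V by a log2 fold change of 0.47 (SE 0.2, 95% interval 0.06 to 0.88; edgeR adjusted p = 0.291). That difference rested largely on D-V replicate 5. Without that library it was 0.22, and D-V against Control became -0.43. D-V and S-V, both with vision blocked, differ in the rotation. Npas4 was 0.33 higher in D-V than in S-V on the log2 scale (SE 0.2, -0.07 to 0.74; edgeR adjusted p = 0.806), and 0.093 higher without D-V replicate 5. D+V and S-V lay 0.14 apart for Npas4, with a log2 fold change of -0.14 for D+V (SE 0.2, -0.55 to 0.27; edgeR adjusted p = 0.808). This last pair differs in both rotation and vision, which cannot be told apart there.

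For Arc the lowest unadjusted p came from D+V against S-V, with a log2 fold change of -0.46 (SE 0.21, 95% interval -0.90 to -0.02; edgeR adjusted p = 0.371). The exact two-sided permutation test gave p = 0.0397 there, or 0.15 adjusted over the 14 tests. With limma voom and quality weights, the value was -0.61 (SE 0.18) and the adjusted p was 0.0302. This was the single case in which another tool or setting called a member, and limma voom called 1943 genes in that comparison. By edgeR, leaving out D+V replicate 1 raised the all-gene count there from 0 to 1480, with Arc at -0.48 and an edgeR adjusted p of 0.209. Against Control the log2 fold changes of Arc were 0.08 in S-V (SE 0.24, -0.42 to 0.58; edgeR adjusted p = 0.92) and -0.38 in D+V (SE 0.24, -0.88 to 0.12; edgeR adjusted p = 0.422). In D-V it was -0.15 (SE 0.24, -0.65 to 0.36; edgeR adjusted p = 0.95). For the mean of the rotated groups it was -0.15 (SE 0.2, -0.58 to 0.28; edgeR adjusted p = 0.786). Arc differed by -0.22 between D-V and S-V (SE 0.21, -0.66 to 0.21; edgeR adjusted p = 0.902) and by 0.24 between D-V and D+V (SE 0.21, -0.20 to 0.67; edgeR adjusted p = 0.674). Without D-V replicate 5 these 2 values were -0.41 and 0.04. The intervals leave room for differences of more than 0.5 on the log2 scale, in one direction at least, in every comparison.

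**Figure D2:**
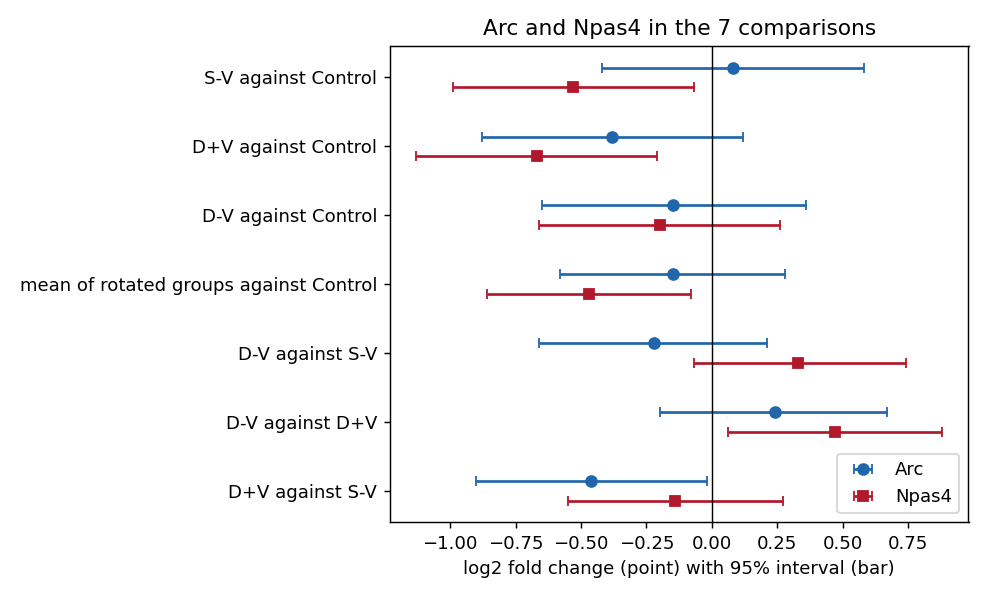
Log2 fold change of Arc (circles) and Npas4 (squares) in the 7 comparisons, with 95% intervals from edgeR as bars and a vertical line at no difference. The Npas4 intervals lie below 0 for S-V, D+V and the averaged rotated groups against Control and above 0 for D-V against D+V, and no adjusted p passed 0.05.

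Markers of choroid plexus and thalamus were also compared between the groups, and none of these passed the edgeR test. All 18 choroid plexus markers had positive log2 fold changes in each rotated group against Control. Their median values were 1.56 (S-V), 1.6 (D+V) and 2.02 (D-V). None of the 18 had an unadjusted p under 0.05 there, or every library of a rotated group above every control. The median library summed to 741 CPM (Control), 1200 (S-V), 400 (D+V) and 449 (D-V). By that measure D+V and D-V lay below Control. Without the 5 choroid-rich libraries, Npas4 against Control was -0.67 (SE 0.24) in S-V, -0.68 (SE 0.22) in D+V and, for D-V, -0.008 (SE 0.23). On the same libraries Arc was 0.25 (SE 0.24), -0.50 (SE 0.23) and -0.038 (SE 0.24), and D+V against S-V was -0.75 (SE 0.23). Of 19 tested markers of thalamus and habenula, brain regions beneath the hippocampus, 17 were negative for S-V, 17 for D+V and 18 for D-V against Control. Their median log2 fold changes were -0.43, -0.64 and -0.78. An unadjusted edgeR p under 0.05 was found for 3, 6 and 12 of 19, beside 13.4%, 17.6% and 6.02% of all genes. Below every control lay 1, 2 and 6 of 19, beside 5.74%, 3.96% and 2.37% of all genes. The thalamus and habenula markers summed to 235 to 391 CPM in Control, 194 to 260 in S-V, 195 to 296 in D+V and 192 to 268 in D-V. Their part in the Npas4 values was not tested. The median correlation of Npas4 with these 19 markers over the libraries was 0.01. Markers of red blood cells summed to 482 to 642 CPM in Control, 602 to 995 in S-V, 386 to 3190 in D+V and 918 to 1750 in D-V. All 5 had positive log2 fold changes in each rotated group against Control, with medians of 0.51, 1.51 and 1.18. An unadjusted edgeR p under 0.05 was found for 0, 5 and 5 of them. Above every control lay 0, 0 and 5, beside 2.75% of all genes in D-V. The part of red blood cells was not tested either. The 12 markers of endothelium and pericytes summed to 386 to 448 CPM in Control, 372 to 393 in S-V, 299 to 397 in D+V and 375 to 436 in D-V, with a median correlation of 0.27 with Npas4, or -0.07 with group means removed. In D+V against Control 10 of these 12 had negative log2 fold changes, and 7 had an unadjusted p under 0.05, beside 17.6% of all genes. The edgeR test called 2 of the 12, both lower, beside 0.942% of all genes. They were Pdgfrb, a pericyte receptor (-0.51, SE 0.08, edgeR adjusted p = 0.0153), and Cldn5, an endothelial claudin (-0.58, SE 0.13, edgeR adjusted p = 0.0411). Of 12 markers of CA1 and CA3 pyramidal cells 6 were positive and 6 negative in D+V, with a median log2 fold change of 0.02. The edgeR test called 2 of them, both higher: Elavl2 (0.73, SE 0.10, edgeR adjusted p = 0.00974) and Nectin3 (0.46, SE 0.10, edgeR adjusted p = 0.0411). Of 10 astrocyte markers 9 were positive and 1 was called, Aqp4 (0.43, SE 0.10, edgeR adjusted p = 0.0411). These calls also stand beside 0.942% of all genes. The part of these cell types in the member values was likewise not tested.

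No shared variation of Arc and Npas4 passed a test. Over the 18 libraries Pearson's r of their log2 CPM was 0.20 (permutation p = 0.421, also after adjustment over 3 relations) and Spearman's rho 0.25 (permutation p = 0.322). Without the 2 libraries farthest from the median of Arc, Control replicate 3 and D-V replicate 5, r was -0.19 (permutation p = 0.479). Without the 5 choroid-rich libraries r was 0.19 over 13 libraries (permutation p = 0.532). D-V replicate 5 was high in both genes, while Control replicate 1 had the second highest Npas4 level of all libraries and the lowest Arc level of the 3 controls. The log2 ratio of the Arc to the Npas4 level differed accordingly between these libraries. It was 2.62, 3.71 and 4.03 in Control replicates 1 to 3. In S-V replicates 1 to 5 it was 4.65, 3.62, 4.2, 3.56 and 4.37. In D+V it was 4.15, 4.13, 3.18, 3.57 and 3.68, and in D-V 3.63, 3.31, 3.63, 3.8 and 3.4. The D-V libraries were the most alike in this ratio, with a mean of 3.56 ± 0.19 (SD, n = 5), against 4.08 ± 0.48 in the S-V group (SD, n = 5), 3.74 ± 0.41 in D+V (SD, n = 5) and 3.45 ± 0.74 in Control (SD, n = 3). Replicate 5 of D-V, with 3.4, did not stand out, with both genes high there. None of the 7 differences in the ratio had an adjusted p under 0.459 by exact two-sided permutation. The smallest unadjusted exact p was 0.0873, for D-V against S-V (-0.53), and it became 0.0317 without S-V replicate 4 and 0.0476 without S-V replicate 2. S-V exceeded Control by 0.63 (exact p = 0.179).

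**Figure D3:**
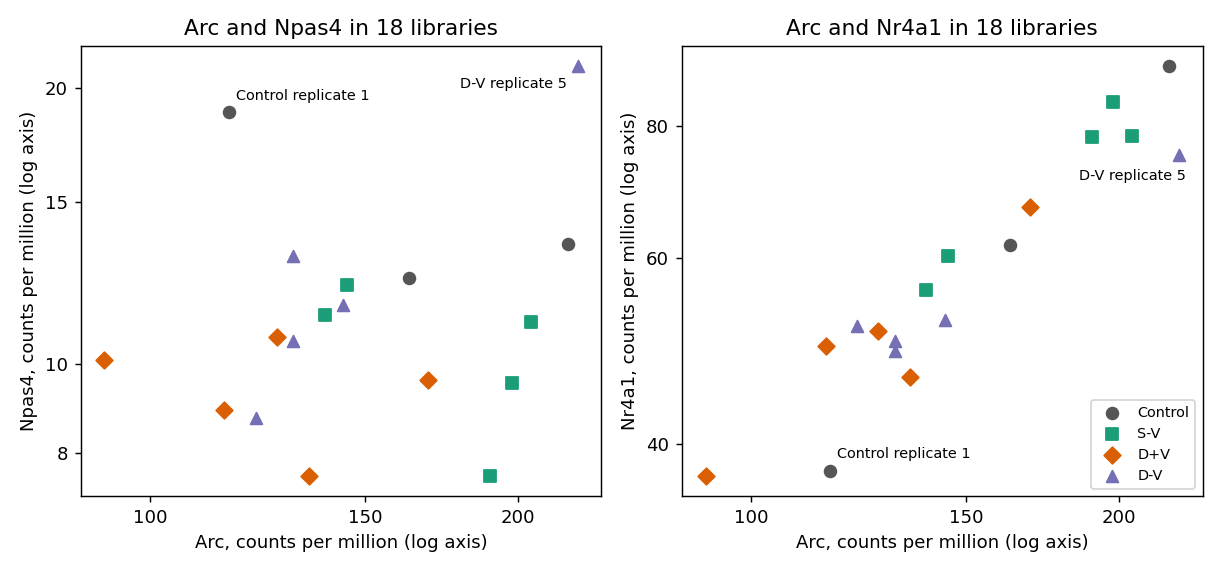
Npas4 (left) and Nr4a1 (right) against Arc in 18 libraries, all axes in CPM on log scales, with colour and shape giving the group. Nr4a1 follows Arc closely (r = 0.95) and Npas4 does not (r = 0.20); Control replicate 1 and D-V replicate 5 are labelled.

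The genes most like Arc over the libraries included 3 other activity genes. The measure was Pearson's r of log2 CPM over 18 libraries, which share tissue, depth and composition, so it is a description with no test. The 8 highest were Nr4a1 (0.95), Lefty1 (0.90), Lingo3 (0.90), Junb (0.88), Kctd1 (0.87), Egr1 (0.87), Lct (0.84) and Pou3f1 (0.84). Nr4a1 encodes an orphan nuclear receptor, Egr1 a zinc finger factor and Junb a subunit of AP-1, all immediate early genes. With group means removed these 8 values ranged from 0.80 to 0.94, so that the likeness lay largely within groups. Nr4a1 read 37.7, 61.7 and 91.2 CPM in Control replicates 1 to 3, the order in which Arc ranked them, and its highest D-V library was also replicate 5, at 75.2 CPM. The genes most like Npas4 were Tmem94 (0.79), Astn2 (0.76), Mttp (0.75), and Rnf26, Rnf19b, Prmt2, Sox12 and Ccdc97 (0.74 each), none of them an immediate early gene of the list used here. Removing group means lowered those 8 values to between 0.51 and 0.75.

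A list of 35 immediate early transcription factors and early regulators, Arc and Npas4 left out, was read against both genes, and 34 of its genes were tested. Of these, 14 (41.2%) correlated with Arc above 0.5, against 4.12% of all genes tested, with a median r of 0.44. Egr4, another zinc finger factor of the same family as Egr1, reached 0.83, Dusp5, a nuclear phosphatase that acts on ERK, 0.74, and Fos 0.66. Homer1, a synaptic scaffold with a short activity-induced form, was at -0.04. With Npas4, 0 of 34 correlated above 0.5, which is close to the share of 2.84% over all genes. The median r was 0.11, and 27 of 34 were positive. Jund was at 0.50 and Fos at 0.44, or 0.19 and 0.57 with group means removed. Egr4 was at 0.40 and Nr4a1 at 0.02. The place of the early genes was read only in a few libraries, each the highest or lowest of its group for Arc. Since many of these genes follow Arc, the counts are a description and not a test. Control replicate 1 was the lowest of the 3 controls for 22 of 34 early genes, where it was lowest for 35.3% of all genes. D-V replicate 5 was the highest of its group for 16 of 34, where it was highest for 18.6% of all genes. D+V replicate 3 was the lowest of its group for 12 of 34, where it was lowest for 18.5% of all genes.

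**Figure D4:**
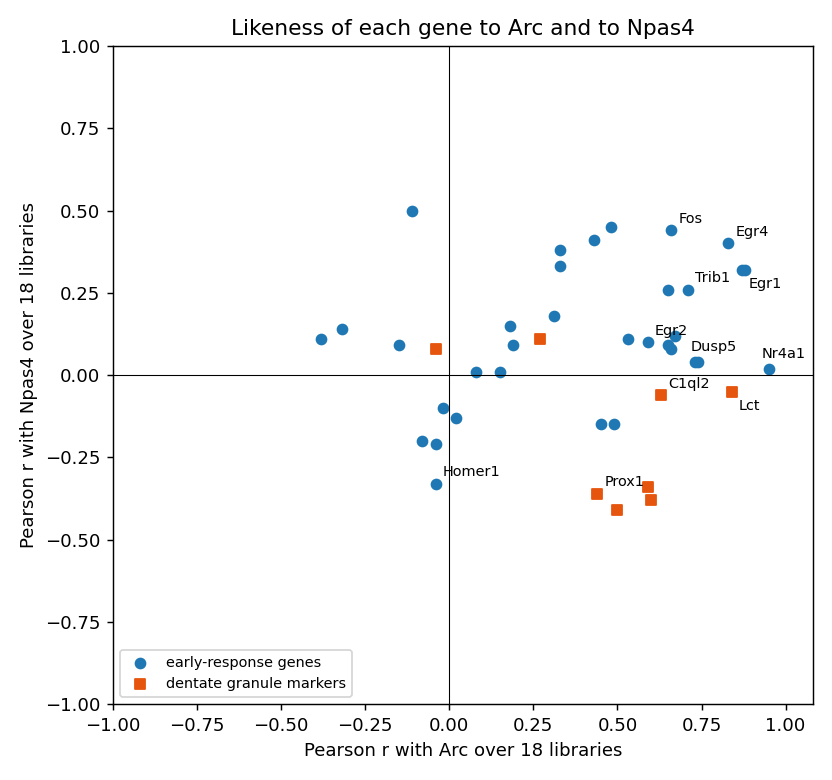
Pearson's r over 18 libraries with Arc (horizontal) and with Npas4 (vertical) for 34 early-response genes (circles) and 8 dentate granule cell markers (squares). Early-response genes spread to the right, up to 0.95 with Arc for Nr4a1. None exceeds 0.5 with Npas4, which is close to the share of 2.84% over all genes.

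By group, none of the 34 early genes passed the edgeR test in any comparison with Control, DESeq2 called none either, and limma voom called 4 in D+V, among 1882 of all genes. At an unadjusted p under 0.05 there were 2 of 34 (S-V), 11 (D+V) and 2 (D-V), to be read against 13.4%, 17.6% and 6.02% of all genes. The log2 fold changes were negative for 13 of 34 (S-V), 27 (D+V) and 21 (D-V), with medians of 0.03, -0.16 and -0.04 beside 0.002, -0.002 and 0.005 for all genes. Egr2 and Atf3 stood furthest from Control in D+V. Egr2, a zinc finger factor, had log2 fold changes of -0.03 (S-V), -0.99 (D+V) and -0.69 (D-V), with an SE of 0.3 each and an edgeR adjusted p of 0.0967 in D+V. Atf3, a stress-induced partner of AP-1 factors, had -0.36, -0.95 and -0.47 (edgeR adjusted p = 0.14 in D+V), at only 0.78 CPM in D+V. Klf2, a Krüppel-like factor also found in endothelium, had 0.20, -0.53 and -0.40, and Jund, an AP-1 subunit, -0.28, -0.21 and 0. In the same order Fos had 0.12, -0.38 and -0.27, Egr1 -0.01, -0.29 and -0.21, and Nr4a1 0.17, -0.33 and -0.19. The Arc values of 0.08, -0.38 and -0.15 had the signs of Fos and Nr4a1 in each group. Npas4, at -0.53 in S-V, lay below all 34 there, the lowest of which was Atf3 at -0.36.

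**Figure D5:**
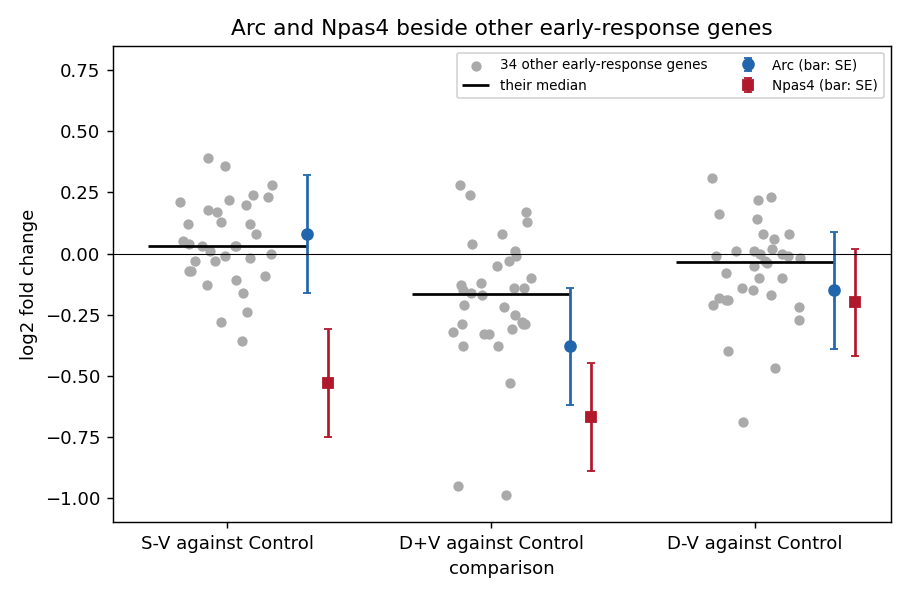
Log2 fold change against Control of 34 early-response genes (grey points, spread sideways for visibility; black line, median), with Arc (circle) and Npas4 (square) and their standard errors, for S-V, D+V and D-V. In S-V the Npas4 value of -0.53 lies below all grey points, while Arc at 0.08 lies among them.

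Markers of dentate granule cells followed Arc. The mean of the 8 markers, each centred on its own mean log2 CPM, correlated with Arc at r = 0.71 over 18 libraries (permutation p = 0.00084, adjusted over 3 relations 0.00252) and rho = 0.66 (permutation p = 0.00346). This score was added after the data were seen, and its marker Lct was already among the 8 genes most like Arc. The p-values of the score, the adjusted one included, therefore cannot serve as a test. Without the 2 libraries farthest from the median score, Control replicate 1 and D+V replicate 3, r was 0.59 (permutation p = 0.0165). It was 0.75 without the 5 choroid-rich libraries (permutation p = 0.00322), 0.75 with group means removed (permutation p = 0.0003) and 0.63 when Lct was dropped from the score (permutation p = 0.00503). Among single markers r with Arc was 0.84 for Lct, 0.63 for C1ql2, 0.60 for Tdo2, 0.59 for Dsp, 0.50 for Stxbp6, 0.44 for Prox1, the transcription factor that specifies granule cells, 0.27 for Glis3 and -0.04 for Pdzd2. Npas4 showed r = -0.25 with the score (permutation p = 0.309). The summed level of the 8 markers was 403 to 702 CPM in Control, 439 to 644 in S-V, 414 to 574 in D+V and 431 to 540 in D-V. With the score as a covariate, Arc against Control was 0.081 in S-V, -0.27 in D+V (SE 0.15) and 0.072 in D-V, where the sign turned, and D+V against S-V was -0.35 (SE 0.14; edgeR adjusted p = 0.305). Npas4 under the same fit was -0.51, -0.68 and -0.24. For the other 11 marker lists the median r with Arc lay between -0.32, for general neuronal markers, and 0.30, for the oligodendrocyte lineage. Single markers of other cells were as close to Arc. On the list of CA1 and CA3 pyramidal cells, with a median of -0.09, Pou3f1 was at 0.84, Wfs1 at 0.74 and Dcn at -0.76. Of those 12 markers 5 were positive and 2 exceeded 0.5, against 5 of 8 dentate markers and 4.12% of all genes above 0.5. The part of cell makeup in the Arc values was not tested further.

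Upstream of both genes, a list of 37 calcium channels, glutamate receptors, kinases and promoter or enhancer factors was tested in full. None passed the edgeR test in S-V, D+V or D-V against Control, and 7, 11 and 4 had an unadjusted p under 0.05, beside 13.4%, 17.6% and 6.02% of all genes. In D+V DESeq2 called 4, among 731 of all genes, and limma voom 9, among 1882. The list's median log2 fold changes were 0, 0.06 and -0.01. Camk4, the nuclear calcium-dependent kinase that phosphorylates CREB, came closest, with 0.03 in S-V, 0.65 in D+V (SE 0.16; edgeR adjusted p = 0.0533) and 0.14 in D-V. Its D+V libraries, at 18.2 to 34.4 CPM, lay above all controls, at 15.9 to 17.8 CPM. The D+V count of this list was 3 without Control replicate 3, where 400 of all genes were called, and 7 without D+V replicate 1, where 1260 were. It was 0 without each of the other D+V or Control libraries, where 0 to 115 of all genes were called. Hdac4, a histone deacetylase that leaves the nucleus on activity, had 0.20, 0.37 and 0.32 (edgeR adjusted p = 0.068 in D+V). Elk1, a partner of serum response factor and a target of ERK, had -0.10, -0.32 and -0.23 (edgeR adjusted p = 0.0731 in D+V) and an r of 0.70 with Arc. Rps6ka5, which encodes the kinase MSK1, had 0.29, 0.34 and 0.24 (edgeR adjusted p = 0.0997 in D+V).

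NPAS4's relatives, dimer partners and reported targets made a list of 31 genes, of which 28 were tested. None passed the edgeR test in any of the 3 comparisons with Control, and 3, 3 and 1 had an unadjusted p under 0.05, beside 13.4%, 17.6% and 6.02% of all genes. DESeq2 called none, and limma voom called 1 in S-V, among 318 of all genes, and 2 in D+V, among 1882. Median log2 fold changes were 0.04, 0.06 and 0 in S-V, D+V and D-V. Arnt2, the main neuronal dimer partner, was abundant, at 243 ± 19.8 CPM in S-V to 284 ± 49.1 CPM in D+V (SD, n = 5 each), with log2 fold changes of -0.12, 0.11 and -0.03. Per kilobase, Npas1 averaged 5.68 CPM in Control and Npas2 5.14, both above the 4.12 of Npas4, and Npas3 1.79. Npas1, a repressor found in interneurons, had 0.07, 0.15 and 0.19. Npas2, a relative of CLOCK, had -0.06, 0.17 and 0.01, and Npas3 had 0.03, 0.15 and -0.04. Among targets, Bdnf, the neurotrophin, had 0.06, 0.03 and 0.06, and Nptx2, a secreted pentraxin that gathers AMPA receptors, -0.27, -0.31 and -0.22 (SE 0.13 each). Mdm2, the ubiquitin ligase of p53, had 0.26, 0.11 and 0.15, and Arntl, the clock factor BMAL1, 0.25, 0.11 and 0.13. Pcsk1, a prohormone convertase, had 0.03, 0.47 and 0.39. Its r was -0.83 with Arc, -0.82 with group means removed, and -0.11 with Npas4. Bdnf had an r of -0.41 and Nptx2 of 0.29 with Npas4, and 1 of 28 genes (3.57%) correlated with Npas4 above 0.5, near the 2.84% of all genes.

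Arc's partners at the spine, in endocytosis and in protein turnover made a list of 42 genes, all tested. Like the other gene lists here, it was chosen with earlier results of these data known. Its counts beside those of all genes are therefore a description and not a test. In D+V against Control 3 of 42 passed the edgeR test, 1 higher and 2 lower, beside 0.942% of all genes, and none passed in S-V or D-V, where DESeq2 and limma voom each called 2 (S-V, among 216 and 318 of all genes) and 0 (D-V). At an unadjusted p under 0.05 there were 7, 10 and 2 of 42, beside 13.4%, 17.6% and 6.02% of all genes. Dbn1, which encodes the spine actin-binding protein drebrin, averaged 330 ± 11.3 CPM over the 3 controls (SD) and fell to 259 ± 15.3 CPM over the 5 D+V libraries (SD), a log2 fold change of -0.35 (SE 0.06; edgeR adjusted p = 0.0157). It was at 264 ± 9.92 CPM in S-V (-0.32, edgeR adjusted p = 0.0929) and 305 ± 7.75 in D-V (-0.11). In all 3 rotated groups every Dbn1 library was below every control, which held for 2 of 42 genes of the list and 0.359% of all genes. Sptbn4, which encodes a spectrin found at axon initial segments, fell from 179 ± 6.57 to 148 ± 12.8 CPM in D+V, a log2 fold change of -0.28 (SE 0.06, edgeR adjusted p = 0.0437). Sptbn4 had -0.33 in S-V (edgeR adjusted p = 0.0929) and -0.08 in D-V. Ube3a, a ubiquitin ligase linked to Arc turnover, rose from 86.9 ± 9.81 to 132 ± 28.6 CPM in D+V, 0.60 on the log2 scale (SE 0.14; edgeR adjusted p = 0.0453), with overlapping libraries, since D+V ranged from 87.7 to 158 CPM. Ube3a had 0.09 in S-V and 0.08 in D-V. Gsk3b, a kinase that marks Arc for degradation, had 0.12, 0.39 and 0.15 (edgeR adjusted p = 0.083 in D+V). The 3 calls fell to 0 without the choroid-rich libraries, with GC and length trends removed, and when the fit held only D+V and Control. Calls over all genes were not counted in those fits, so the loss cannot be assigned to the list. The 3 calls also depended on single libraries. There were 0 without Control replicate 1 or 2, where 0 and 2 of all genes were called. There was 1 without D+V replicate 2, 3, 4 or 5, where 115, 13, 30 and 26 of all genes were called. There were 8 without D+V replicate 1, where 1260 of all genes were called. In S-V 9 of 42 lay below every control, beside 5.74% of all genes, and in D+V 5 of 42, beside 3.96%. No gene of the list lay above every control in D+V, beside 3.67% of all genes. Camk2a, the abundant kinase whose mRNA also enters dendrites, had -0.10, 0.09 and -0.06, and Dlg4 -0.17, -0.15 and -0.11. Over the libraries the list had a median r of 0 with Arc, with 2 of 42 (4.76%) above 0.5, near the 4.12% of all genes.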

How the data were processed

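Poly(A)-selected hippocampal RNA was sequenced in 18 libraries (Control 3, S-V 5, D+V 5, D-V 5). The deposited table holds estimated counts per gene, of which 7.35% were not whole, and these were rounded. The submitters' processing notes name Bowtie2 2.2.8, HISAT2, StringTie 1.3.1 and DESeq2. The genome build, annotation and strand setting were not given in the sources used here. Groups came from the labels and each column matched 1 sample. Genes passing edgeR's filter (14763, holding 99.97% of counts) were fitted in 1 model over the 4 groups with edgeR 4.0.16 (R 4.3.3), TMM scaling and robust quasi-likelihood, with Benjamini-Hochberg adjustment over all genes tested. Log2 CPM used a prior count of 2. Exact permutation tests used log2 CPM in scipy 1.17.1, and correlations used 100000 permutations. The Arc to Npas4 ratio was taken from the counts of a library, with 0.5 added to both. Alternatives were DESeq2 1.42.0, limma 3.58.1 (voom), other scalings and filters, a replicate block and leaving out each library; trends, choroid-rich libraries and the dentate score were added after seeing the data. The fit was tested on simulated data. Gene names and GC content came from GENCODE M21. The members and gene lists were chosen with earlier results of these data known. Beyond Arc, Npas4 and 11 reference genes, named genes were the 4 with the smallest unadjusted p against Control from each of 4 pathway lists, the 8 most correlated with each member (from a mean log2 CPM of 1 upward), and a few further examples by correlation, chosen after their values were seen.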

Additional observations from a re-analysis of the deposited data

Results flagged for a closer look

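In groups of 5 libraries, the members, the reference genes and the Arc to Npas4 ratio were searched for a library whose gap to its nearest neighbour exceeded 0.71 of the group's range, Dixon's 95% critical value. Arc in D-V replicate 5 was at 224 CPM, with a gap of 0.785 of the range, and Nr4a1 in the same library was at 75.2 CPM, with a gap of 0.871. Fos in S-V replicate 4 was at 23.6 CPM (0.751) and Npas2 in that library at 31.3 CPM (0.81). Bdnf in D+V replicate 1 was low, at 30.7 CPM (0.74). Chance gives such a library in about 1 of 20 groups, and 42 groups were searched. Npas4 in D-V replicate 5, the highest of the 18 libraries, did not reach the critical value.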

How the results depend on the processing

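No setting gave Npas4 an adjusted p under 0.05, and limma voom in D+V against S-V was the single one that did so for Arc (-0.61). DESeq2 gave no adjusted p for Npas4 in S-V or in the averaged rotated groups against Control. Signs turned for Arc in D-V against Control with the dentate score as covariate (0.072) and for the correlation of the 2 genes without the 2 libraries farthest from the median of Arc (-0.19); the cause was not tested. The replicate numbers did not pair the libraries (median r of same-numbered libraries 0.01, and 3 of 18 closest to their own number). With the replicate block Npas4 was -0.76 in D+V, -0.62 in S-V and -0.31 in D-V against Control, Arc was -0.37 in D+V, and the Arc partner list had 0 calls in D+V. That list had 3 calls in D+V in the main analysis, among 139 of all genes, against 5 by DESeq2 (among 731) and 9 by voom (among 1882). It had 1 with no filter, and 0 with only the groups compared, with GC and length trends removed or without the choroid-rich libraries. In S-V it had 2 by upper-quartile scaling, DESeq2 (among 216) and voom (among 318). For the mean of the rotated groups it had 1, 2 (among 238) and 3 (among 381). Calls over all genes were not counted for the other scalings and filters, the replicate block, the fits of only the groups compared, the removed trends or the dropped choroid-rich libraries. Under those settings a change in a list cannot be told apart from a change in calling over all genes. The upstream list had 1 call in D+V under a filter of 1 CPM in 5 libraries, 4 by DESeq2 and 9 by voom, and 1 by DESeq2 and by voom for the mean of the rotated groups. By voom the NPAS4 list had 1 call in S-V and 2 in D+V, and the early genes 4 in D+V. These DESeq2 and voom counts stand beside the same all-gene counts as those of the Arc partner list. Fitting only the groups compared gave no separate value for the mean of the rotated groups.

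Leaving out 1 library at a time, Npas4 ranged from -0.79 to -0.46 in D+V, -0.65 to -0.33 in S-V, -0.43 to 0.007 in D-V and -0.58 to -0.26 for the averaged rotated groups against Control, and from 0.22 to 0.59 in D-V against D+V, 0.093 to 0.45 in D-V against S-V and -0.23 to -0.067 in D+V against S-V. Arc ranged from -0.59 to -0.13 in D+V, -0.13 to 0.33 in S-V, -0.35 to 0.11 in D-V and -0.35 to 0.11 for the mean of the rotated groups, and from 0.04 to 0.36, -0.41 to -0.16 and -0.58 to -0.36 in those 3 pairs. The sign turned without Control replicate 1 for Arc in S-V (-0.13) and Npas4 in D-V (0.007), and without Control replicate 3 for Arc in D-V and the mean (0.11 each). The correlation ranged from -0.05, without D-V replicate 5, to 0.38, without Control replicate 1. The log2 ratio of Arc to Npas4 ranged from -0.13 to 0.58 in D+V, 0.21 to 0.92 in S-V, -0.31 to 0.39 in D-V and -0.08 to 0.63 for the mean against Control, with the 3 negative values all without Control replicate 1. It ranged from -0.66 to -0.38 in D-V against S-V (exact p = 0.0317 without S-V replicate 4 and 0.0476 without S-V replicate 2), -0.33 to -0.09 in D-V against D+V and -0.47 to -0.20 in D+V against S-V. Calls in D+V ranged from 0 to 8 for Arc partners, 0 to 7 upstream, and 0 to 1 for the NPAS4 and early lists. Over all genes they ranged from 0 to 1260. Depth limits Npas4 more than Arc, with a counting error of up to 8.33% against 2.72% per library.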
